A study of Mus musculus with 4 samples.

Results

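Lymphocyte lineage transcription factors were examined across the T cells, natural killer (NK) cells, innate lymphoid cells (ILCs) and B cells of the mouse liver. They were 9 genes chosen by symbol, Zbtb16, Tbx21, Eomes, Gata3, Foxp3, Tcf7, Lef1, Bach2 and Etv5, of 32285 genes counted. The study asked how a high-fat diet, and a herbal formula given during it, altered the immune cells of the liver, and its own analysis dealt with Eomes in cytotoxic T cells and with Etv5 in type 2 helper T cells. Suspensions of perfused and digested livers of male C57BL/6J mice were profiled in 10x Genomics droplets, which tag each captured RNA molecule with a unique molecular identifier (UMI). The NCD group ate normal chow and the HFD group a high-fat diet, both with distilled water by gavage. The JQF group ate the high-fat diet and received Jiangtang Qingre Formula, a mixture of herbal granules with 1 decocted ingredient, by gavage. There was 1 NCD library, 2 HFD libraries and 1 JQF library. By the study's methods the mice were bought young, the HFD and JQF mice were on the diet for some months before the gavage began, and the number of livers taken for this assay in each group equals the number of libraries, which reads as 1 mouse per library. The labels call the material hematopoietic stem cells and immune cells, whereas the libraries held T, NK, B, myeloid and endothelial cells by the gates used here. P-values that compare groups therefore rest on the spread between 2 HFD mice and on spread that the test borrows from other genes. The first gives 1 residual degree of freedom, so the borrowed spread carries more weight.

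These factors are DNA-binding proteins that help to set which lymphocyte a precursor becomes and which state a mature lymphocyte takes. Zbtb16, which encodes PLZF, is the factor of innate-like T cells such as invariant NKT cells, while Tbx21 (T-bet) and Eomes are related T-box factors of NK cells, type 1 ILCs and cytotoxic T cells. Gata3 is the factor of type 2 helper T cells and ILC2s and is needed by all T cells, Foxp3 defines regulatory T cells, Tcf7 (TCF-1) and Lef1 are related Wnt-pathway factors of naive and memory-like T cells, Bach2 is a repressor that holds B and T cells back from effector fates, and Etv5 is an Ets factor downstream of growth factor signalling. The liver is rich in NKT cells, NK cells and ILC1s.

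After barcodes with fewer than 500 genes or over 20% mitochondrial UMIs were removed, 5975 cells remained in NCD, 6516 and 10259 in the HFD libraries and 8540 in JQF, with 67615639 to 108062769 UMIs per library. The median cell held 13081 UMIs in NCD, 7608 and 7874 in the HFD libraries and 8884 in JQF. NCD cells were thus the most deeply counted, and shares of cells with a UMI are given beside the same shares after each cell was thinned to 2000 UMIs. Between 12 and 27 cell barcodes were shared by a pair of libraries, at most 0.316% of the smaller one. Cells were assigned to classes by the UMIs of marker genes, mostly of surface proteins and receptors, none of which was one of the 9 factors. The gates held 7298 T cells, 338 NK cells, 461 ILC1-like cells, 11 ILC2-like cells and 1266 B cells. NK and ILC1-like cells, gated on Ncr1 and Klrb1c, carried the T cell receptor gene Trac, which was not used to gate them, at 0 to 17.2 CPM (counts per 1000000 UMIs of the class), against 358 to 551 CPM in T cells. Whether intronic reads were counted is not given in the sources used here, and the CPM of long genes such as Bach2, Zbtb16 and Lef1 depend on it. Only 9 NK cells were gated in NCD, so NCD values in NK cells are imprecise, while HFD had 121 and 93 and JQF had 115. T cells were split into CD4 cells, CD8 cells, NK1.1+ CD8- cells (with a UMI of Klrb1c, the NK1.1 gene, and none of Cd8a or Cd8b1), gamma-delta cells and a remainder, and cells with Klrb1c were taken out before the CD4 gate.

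The factors differed in how much of their RNA lay in these lymphocytes. The gated lymphocytes held 84.6% of all Eomes UMIs, 78.2% of Gata3, 77.7% of Tbx21, 76.1% of Tcf7, 74.1% of Lef1 and 73.0% of Foxp3. The pooled share was lower for Bach2 (47.8%), Zbtb16 (46.5%) and Etv5 (12.4%), and it differed between libraries, which held unequal parts of T cells (9.61% of the NCD cells, 26.9% and 17.1% in the HFD libraries and 37.7% in JQF). T cells alone held 48.4% of Zbtb16 UMIs in NCD, 28% and 13.7% in the HFD libraries and 59.1% in JQF. For Bach2 the T cell share was 18.6% in NCD, 25.3% and 18.3% in the HFD libraries and 45.5% in JQF, and for Etv5 it was 4.31%, 8.22%, 3.78% and 30.6% in the same order. The pooled Etv5 UMIs outside the lymphocytes lay in the myeloid gate (32.7%), the endothelial gate (18.2%) and cells of no gate (36.6%), and in JQF the T cells held more of them than the myeloid gate (17.6%). Zbtb16 was also counted in endothelial cells, which held 15.1% of its UMIs. Its endothelial level was 15.3 CPM in NCD, 212 and 342 CPM in HFD and 383 CPM in JQF, with NCD far below the other 3 libraries. Barcodes with 1 to 100 UMIs that were not called as cells show what free RNA carries. In them Zbtb16 stood at 121 CPM in NCD, 30.6 and 28 CPM in HFD and 122 CPM in JQF, and the other 8 factors lay between 1.65 CPM for Foxp3 in JQF and 203 CPM for Bach2 in NCD.

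**Figure D1:**
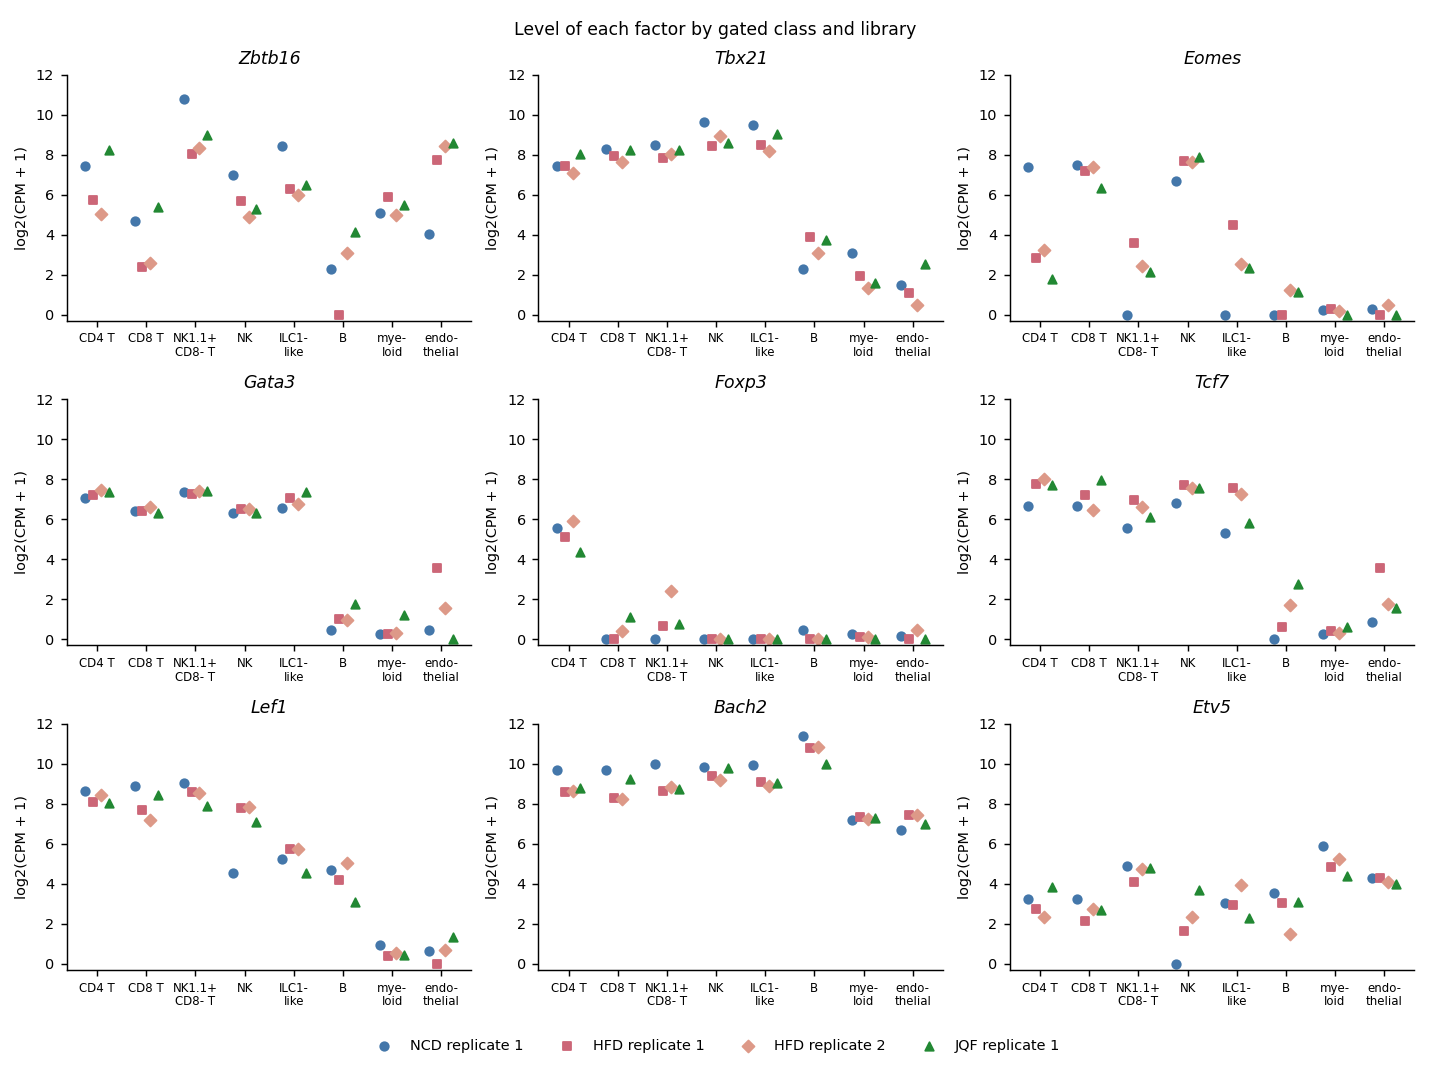
Level of each of the 9 factors, as log2 of CPM plus 1 (y axis), in 6 lymphocyte classes and in the myeloid and endothelial gates (x axis). Each point is 1 library (blue NCD, red and pink HFD, green JQF), and for Gata3 the 4 libraries of every T, NK and ILC1-like class lie above those of B cells.

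Innate lymphocytes were set against T cells first, to ask which factors separate these cells within the same livers. Eomes, Tbx21 and Bach2 were higher in NK cells than in T cells, and Zbtb16, Gata3, Lef1 and Foxp3 were lower. In this comparison 7 of 9 factors passed the threshold, where 18.9% of the 10950 genes tested passed. The test was edgeR's quasi-likelihood F test on UMIs summed per library and class, with the library as a block and Benjamini-Hochberg adjustment over all genes tested, and each adjusted p in the text comes from this test unless another is named.

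Eomes in NK cells was 101 CPM in NCD, 201 and 200 CPM in HFD and 236 CPM in JQF. In T cells as a whole it was 115 CPM in NCD, 80.7 and 113 CPM in HFD and 21.8 CPM in JQF, so the classes overlapped through the 9 NCD NK cells. The log2 fold change of NK over T cells was 1.46 (SE 0.34, edgeR adjusted p = 0.00342). It was 0.77 without JQF (adjusted p = 0.00430), and the call was lost by DESeq2 (1.26, adjusted p = 0.0703). Tbx21 in NK cells was 777 CPM in NCD, 346 and 487 CPM in HFD and 386 CPM in JQF, all above the 194 to 287 CPM of T cells. Its log2 fold change was 0.84 (SE 0.17, adjusted p = 0.000865). Bach2 was 924 CPM in NK cells in NCD, 667 and 578 CPM in HFD and 897 CPM in JQF, above the T cells of the same library each time. Its log2 fold change was 0.58 (SE 0.15, adjusted p = 0.00635), a call that was lost without HFD replicate 1 (adjusted p = 0.0566).

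Zbtb16 was 124 CPM in NK cells in NCD, 49.5 and 28.9 CPM in HFD and 37.7 CPM in JQF, below the T cells of the same library each time (log2 fold change -1.99, SE 0.28, adjusted p = 2.45e-05). The gap was widest in JQF, and the value was -1.38 without JQF (adjusted p = 5.72e-07). Foxp3 had 0 UMIs in the 338 NK cells and 640 in the T cells, 9.79 CPM over all libraries. With a floor of 3 UMIs over the whole class, Foxp3 was at least 7.59-fold lower in NK cells than in T cells and at least 12.8-fold lower in ILC1-like cells, which also had 0 UMIs. Gata3 was 77.8 to 89.3 CPM in NK cells and 112 to 138 CPM in T cells, without overlap (log2 fold change -0.63, SE 0.18, adjusted p = 0.0149). The Gata3 call was lost without HFD replicate 2 (adjusted p = 0.0597) or without JQF (adjusted p = 0.196). Lef1 in NK cells was 22.5 CPM in NCD, 217 and 231 CPM in HFD and 137 CPM in JQF, against 217 to 432 CPM in T cells. Its log2 fold change of -0.81 (SE 0.27, adjusted p = 0.0417) was kept in 6 of 12 alternative settings. It did not pass without NCD (-0.47, adjusted p = 0.0764), by DESeq2 (0.417), when scaled by library totals (0.0895), with stricter gates (0.0593), at 10% mitochondrial UMIs (0.0527) or with doublets removed (0.0653). Tcf7 at 0.27 (adjusted p = 0.288) and Etv5 at -0.98 (adjusted p = 0.145) did not pass.

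ILC1-like cells had less Eomes than NK cells, while Tbx21 did not differ beyond the spread between libraries. Tbx21 in ILC1-like cells was 721 CPM in NCD, 360 and 285 CPM in HFD and 521 CPM in JQF, and its log2 fold change over NK cells was -0.02 (SE 0.17, adjusted p = 0.986). Eomes was 0 CPM in the 37 NCD ILC1-like cells, 21.1 and 4.80 CPM in HFD and 3.95 CPM in JQF, below every NK value. The log2 fold change was -4.18 (SE 0.36, edgeR adjusted p = 1.13e-06). HFD replicate 1 held 45 of the Eomes UMIs in ILC1-like cells, against 0 in NCD, 3 in HFD replicate 2 and 3 in JQF, and without it the value was -5.70 (adjusted p = 6.94e-06). Both genes were counted in the same cell in 55.6% of NK cells in NCD, 47.9% and 36.6% in the HFD libraries and 46.1% in JQF, and in 0 to 8.54% of ILC1-like cells. Tbx21 without Eomes was seen in 94.6% of ILC1-like cells in NCD, 76.4% and 71.4% in the HFD libraries and 84.0% in JQF. Myeloid cells, which should lack both genes, held a median of 11231 to 18869 UMIs against 4895 to 8256 in NK cells. A Tbx21 UMI was seen in 1.19% to 3.86% of them and an Eomes UMI in 0 to 0.386%.

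**Figure D2:**
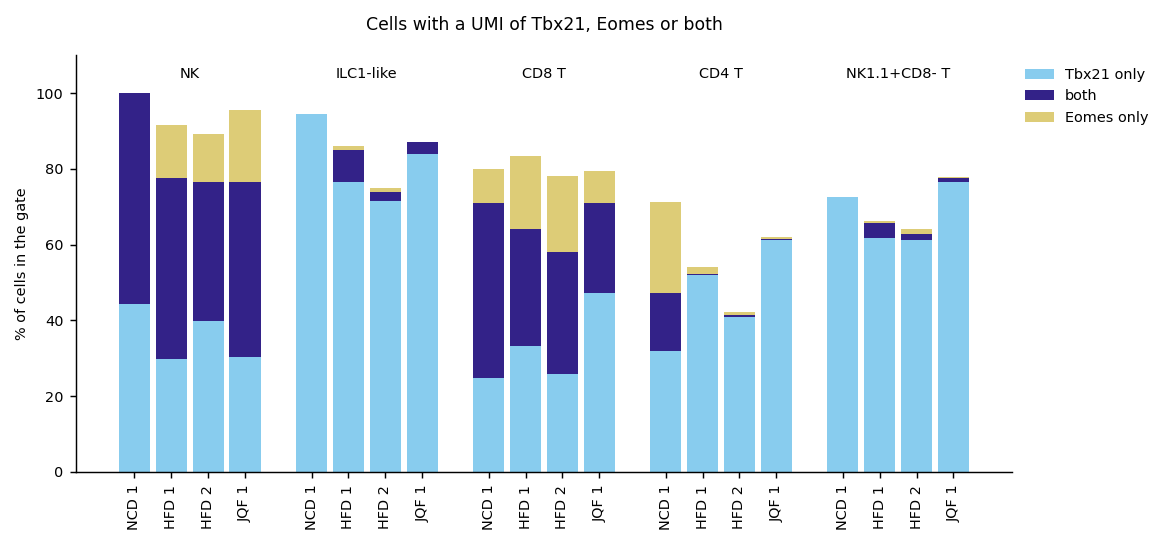
Share of cells (y axis, percent of the gate, unthinned) with a UMI of Tbx21 only, Eomes only or both, stacked for each library (x axis) in 5 gates. Eomes is counted in many NK and CD8 cells of every library, in many CD4 cells of NCD, and in few ILC1-like or NK1.1+ CD8- T cells.

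Of the 7 factors tested between ILC1-like and NK cells, 4 passed the threshold, where 10.1% of the genes tested passed. Besides Eomes, Lef1 was lower in ILC1-like cells, at 36.8 CPM in NCD, 52.1 and 52.8 CPM in HFD and 22.4 CPM in JQF (log2 fold change -1.97, SE 0.27, adjusted p = 0.000131). Zbtb16 was higher, at 338 CPM in NCD, 76.6 and 62.4 CPM in HFD and 89.5 CPM in JQF (log2 fold change 1.11, SE 0.21, adjusted p = 0.00264). In each library Zbtb16 stood higher in ILC1-like than in NK cells. Gata3 was higher by 0.67 on the log2 scale (SE 0.20, adjusted p = 0.0436), a call kept in 5 of 12 alternative settings. It was lost without HFD replicate 1, HFD replicate 2 or JQF (adjusted p = 0.205, 0.0851 and 0.293), by DESeq2 (0.195), by library totals (0.065), with stricter gates (0.0823) and after thinning (0.119). Of 13 tested genes linked to Tbx21 and Eomes, 3 were higher and 6 lower in ILC1-like cells, with a median log2 fold change of -0.07 against 0.01 over all genes. Among them Prf1, which encodes the pore-forming protein perforin, stood at -2.22 (SE 0.18) and the chemokine Ccl4 at 1.18 (SE 0.09).

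The ILC2-like gate held 11 cells, 1 in NCD, 4 and 0 in the HFD libraries and 6 in JQF, too few to compare. Gata3, the factor of ILC2s, was counted in 4 of the 4 cells of HFD replicate 1 and in 4 of the 6 JQF cells. The NCD cell had 0 UMIs of Gata3, 16 of Zbtb16 and 4 of Tbx21, which goes against its gate.

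B cells stood apart from T cells in most factors. Of 9 factors 8 passed the threshold, where 37.6% of 11714 genes passed, and of these 8 Bach2 was the one that was higher in B cells. Bach2 in B cells was 2727 CPM in NCD, 1764 and 1847 CPM in HFD and 1002 CPM in JQF, above the 347 to 844 CPM of T cells in every library (log2 fold change 2.00, SE 0.23, edgeR adjusted p = 0.000540). A Bach2 UMI was present in 98.5% of B cells in NCD, 97.1% and 96.4% in the HFD libraries and 93.2% in JQF. It was also present in 49.4% to 56.0% of the more deeply counted myeloid cells, where Bach2 was 146 to 162 CPM. In HFD the myeloid level was 156 ± 9.21 CPM (SD, n = 2), above the 108 and 119 CPM of free RNA in these libraries. Free RNA held 203 CPM in NCD and 154 CPM in JQF. The T cell factors were low in B cells, with log2 fold changes of -6.46 for Gata3, -5.73 for Tcf7, -3.82 for Lef1, -4.63 for Tbx21, -4.96 for Zbtb16 and -6.59 for Eomes, and 1 UMI of Foxp3 was counted in all 1266 B cells. These folds rest on few B cell UMIs and ranged over the alternative settings from -8.09 to -6.15 for Gata3 and from -7.77 to -5.91 for Eomes. Of 11 other B cell factors, 10 were higher and 1 lower in B than in T cells, with a median log2 fold change of 2.58 against -0.02 over all genes. Pax5, the B cell commitment factor, had the smallest p among them.

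Within T cells Zbtb16 differed widely between NK1.1+ CD8-, CD4 and CD8 cells. In NK1.1+ CD8- T cells it was 1772 CPM in NCD, 263 and 321 CPM in HFD and 497 CPM in JQF. CD4 cells had 171 CPM in NCD, 52.6 and 31.3 CPM in HFD and 294 CPM in JQF, and CD8 cells 25.0 CPM in NCD, 4.23 and 4.92 CPM in HFD and 41.1 CPM in JQF. Within each library the order of the 3 subsets was the same, although they overlapped across libraries. Gamma-delta cells, with 5 cells in NCD, 30 in each HFD library and 100 in JQF, held 234 to 1068 CPM and overlapped NK1.1+ CD8- T cells. In HFD the remainder of T cells held 228 ± 26.3 CPM (SD, n = 2), against 292 ± 41.2 CPM in NK1.1+ CD8- T cells. High Zbtb16 was thus not particular to the NK1.1+ CD8- gate. A Zbtb16 UMI was seen in 94.3% of NK1.1+ CD8- T cells in NCD, 59.0% and 58.2% in the HFD libraries and 83.6% in JQF, and after thinning to 2000 UMIs in 85.8%, 32.4%, 38.1% and 54.2%. In CD8 cells the share was 6.21% in NCD, 1.27% and 1.32% in the HFD libraries and 5.67% in JQF, at a median depth of 7033 to 12582 UMIs. B cells, which should lack the gene, gave 1.82%, 0, 1.38% and 5.35% at 4895 to 8030 UMIs, so the CD8 share was close to that of B cells in HFD replicate 2 and JQF and above it in NCD and HFD replicate 1. Myeloid cells had a Zbtb16 UMI in 14.9% to 21.6% of cells, at 30.7 to 57.4 CPM.

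NK1.1+ CD8- T cells differed from CD4 cells in 5 of 9 factors, where 10.0% of 9432 genes passed. Zbtb16 was higher by 2.49 on the log2 scale (SE 0.44, adjusted p = 0.0127), Etv5 by 1.62 (SE 0.27, adjusted p = 0.0102) and Tbx21 by 0.73 (SE 0.17, adjusted p = 0.0351). Tcf7 was lower, at 45.4 CPM in NCD, 122 and 98.1 CPM in HFD and 67.4 CPM in JQF against 99.6, 216, 257 and 205 CPM in CD4 cells (log2 fold change -1.17, SE 0.15, adjusted p = 0.00424). Foxp3 was also lower (log2 fold change -4.83, SE 0.36, adjusted p = 0.000808). Without HFD replicate 1 or HFD replicate 2 the calls of Zbtb16 (adjusted p = 0.0674 and 0.0935), Tbx21 (0.0903 and 0.178) and Etv5 (0.0550 and 0.0587) were lost, and that of Tcf7 was lost without HFD replicate 2 (0.0503). Of 10 tested genes linked to Zbtb16, 5 were higher and 1 lower in NK1.1+ CD8- T cells, with a median log2 fold change of 0.42 against 0.00 over all genes. Those with the smallest p were Id2, an inhibitor of E proteins (0.76, SE 0.10), the interleukin-18 receptor chain Il18rap (1.03, SE 0.14), the receptor Cd160 (1.68, SE 0.35) and, lower, the other chain Il18r1 (-0.65, SE 0.14).

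CD8 and CD4 cells differed in 3 of 9 factors, where 4.29% of 10912 genes passed. Zbtb16 was lower in CD8 cells (log2 fold change -2.92, SE 0.18, adjusted p = 0.000307). Foxp3 was 46.1 CPM in CD4 cells in NCD, 33.9 and 60.2 CPM in HFD and 19.6 CPM in JQF, and at most 1.13 CPM in CD8 cells (adjusted p = 0.00209). Gata3 was 131 CPM in CD4 cells in NCD, 146 and 175 CPM in HFD and 162 CPM in JQF, above the 78.7 to 97.4 CPM of CD8 cells in every library. Its log2 fold change was -0.81 (SE 0.11, adjusted p = 0.00875), and the call was lost without HFD replicate 1 (0.0771). Of 10 tested genes linked to Gata3, 5 were lower and none higher in CD8 cells, with a median log2 fold change of -1.53 against 0.01 over all genes, and the chemokine receptor genes Ccr4 and Ccr8 were among those lower. Eomes stood at 3.19 on the log2 scale (SE 0.81) in CD8 over CD4 cells, which did not pass (adjusted p = 0.08). Without the NCD library, whose CD4 cells had 163 CPM of Eomes and whose CD8 cells had 178 CPM, the log2 fold change was 4.66 (adjusted p = 0.000811), and with all 4 libraries it passed by DESeq2 (3.77, adjusted p = 0.00213). Of the 14 genes linked to Tbx21 and Eomes, 7 were higher and none lower in CD8 cells, with a median log2 fold change of 2.02 against 0.01 over all genes, led by the granzyme Gzma (7.13, SE 0.32).

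CD4 cells with UMIs of both Il2ra and Ctla4, receptor genes that regulatory T cells carry at high level, numbered 26 in NCD, 36 and 35 in the HFD libraries and 75 in JQF. Foxp3 in them was 114 CPM in NCD, 75.9 and 189 CPM in HFD and 41.9 CPM in JQF. Compared with the other CD4 cells Foxp3 was higher by 2.12 on the log2 scale (SE 0.23, adjusted p = 0.000826) and Tcf7 was lower (log2 fold change -0.88, SE 0.17, adjusted p = 0.0170). These were 2 of 7 factors tested, where 1.83% of 8627 genes passed, and the Tcf7 call was lost without HFD replicate 1 or HFD replicate 2 (0.114 and 0.0634) and after thinning (0.151). A Foxp3 UMI was found in 34.6% of these cells in NCD, 33.3% and 48.6% in the HFD libraries and 14.7% in JQF, and after thinning in 7.69%, 13.9%, 34.3% and 4%. Their median depth was 8350 to 16781 UMIs, and in the 11231 to 18869 UMIs of myeloid cells a Foxp3 UMI was found in 0 to 0.386%. Of 12 genes linked to Foxp3, 6 were higher and none lower, with a median log2 fold change of 0.88 against -0.00 over all genes. The integrin Itgae (2.61, SE 0.33), Capg (1.26, SE 0.18), Tnfrsf9 (1.45, SE 0.24) and the costimulatory receptor Icos (0.74, SE 0.13) had the smallest p.

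Tcf7, Lef1 and Bach2 were lower in checkpoint-high CD8 cells than in other CD8 cells. The RefSeq windows from 250 bases before to 50 bases after an annotated start of these 3 genes are shown for that reason (GRCm38.p6, written on the gene's strand). Capitals mark the TCF/LEF core CTTTGA or its reverse complement TCAAAG. RefSeq listed 2 such windows for Tcf7, 4 for Lef1 and 1 for Bach2, and 1 is shown for each gene. The Tcf7 window is chr11:52282965-52283264 on the minus strand, the Lef1 window chr3:131110073-131110372 on the plus strand and the Bach2 window chr4:32417185-32417484 on the plus strand.
Tcf7: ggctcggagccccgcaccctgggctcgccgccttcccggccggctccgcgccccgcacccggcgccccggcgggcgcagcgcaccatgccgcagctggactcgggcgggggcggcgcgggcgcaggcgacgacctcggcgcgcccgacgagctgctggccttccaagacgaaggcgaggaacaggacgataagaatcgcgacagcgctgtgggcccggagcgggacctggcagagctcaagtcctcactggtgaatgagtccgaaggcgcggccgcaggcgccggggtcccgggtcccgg
Lef1: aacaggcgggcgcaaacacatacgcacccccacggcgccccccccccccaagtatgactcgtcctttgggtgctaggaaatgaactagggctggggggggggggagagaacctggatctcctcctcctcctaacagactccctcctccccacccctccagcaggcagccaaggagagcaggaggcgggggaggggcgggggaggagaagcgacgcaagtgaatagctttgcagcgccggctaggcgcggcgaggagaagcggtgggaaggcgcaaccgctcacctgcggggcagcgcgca
Bach2: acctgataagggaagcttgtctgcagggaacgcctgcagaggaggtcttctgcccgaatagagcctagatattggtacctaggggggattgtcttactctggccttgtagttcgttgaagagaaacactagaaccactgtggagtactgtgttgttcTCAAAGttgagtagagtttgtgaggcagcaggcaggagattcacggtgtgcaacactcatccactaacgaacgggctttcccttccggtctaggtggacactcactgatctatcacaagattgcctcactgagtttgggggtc
The core was found at 1 place in the Bach2 window, as TCAAAG at position 158 counted from the 5′ end of the window, and these letters are not in the Tcf7 and Lef1 windows on either strand. They occur on 1 or both strands in 16.0% of the 32851 RefSeq windows of this length, so a match describes letters only. This Bach2 start lies 178631 bases from the gene's GENCODE start at position 32238804 of chromosome 4. RefSeq windows were matched for 8 of the 9 factors, all but Zbtb16, with 1 window per factor. Neither the GATA core AGATAA (11.2% of windows) nor the T-box motif GGTGTGA (3.98%) was found on either strand of these 8 windows.

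Checkpoint-high CD8 cells, with at least 2 UMIs of the inhibitory receptor genes Pdcd1, Lag3, Havcr2 and Tigit, were compared with the other CD8 cells. Tcf7 in them was 35.6 CPM in NCD, 36.4 and 20.9 CPM in HFD and 126 CPM in JQF, below the other CD8 cells (log2 fold change -2.75, SE 0.37, adjusted p = 0.00499). Lef1 was 139 CPM in NCD, 64.9 and 34.0 CPM in HFD and 101 CPM in JQF (-2.96, SE 0.25, adjusted p = 0.00161). Bach2 was 489 CPM in NCD, 204 and 213 CPM in HFD and 503 CPM in JQF (-1.24, SE 0.20, adjusted p = 0.00845), and its call was lost without HFD replicate 2 (0.0587). For all 3 the checkpoint-high cells lay below the CD8 cells as a whole in each library. Eomes went the other way, at 242 CPM in NCD, 189 and 192 CPM in HFD and 114 CPM in JQF, higher than in other CD8 cells by 1.13 on the log2 scale (SE 0.18, adjusted p = 0.00738). These were the 4 of 8 factors that passed, where 14.5% of 10151 genes passed. Of 13 genes linked to Tcf7, Lef1 and Bach2, 1 was higher and 7 were lower (median log2 fold change -1.30, all genes 0.02), and of the 14 linked to Tbx21 and Eomes 10 were higher and none lower (median 1.09). The granzymes Gzma (2.45, SE 0.19) and Gzmk (1.70, SE 0.18) were among the latter, and Klf2, a factor of quiescent T cells, was among the former (-1.43, SE 0.16).

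Tcf7 in the checkpoint-high cells of JQF was above that of the other libraries. A Tcf7 UMI was seen in 8.24% of these cells in NCD, 8.96% and 5.95% in the HFD libraries and 42.8% in JQF, and after thinning in 2.35%, 3.79%, 3.19% and 19.9%. Their median depth was 13278 UMIs in NCD, 7215.5 and 7007.5 UMIs in HFD and 7614.5 UMIs in JQF, and in myeloid cells a Tcf7 UMI was seen in 0.315% to 0.716%. This difference between groups was chosen after its values were seen and was not tested, and JQF was 1 library.

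**Figure D3:**
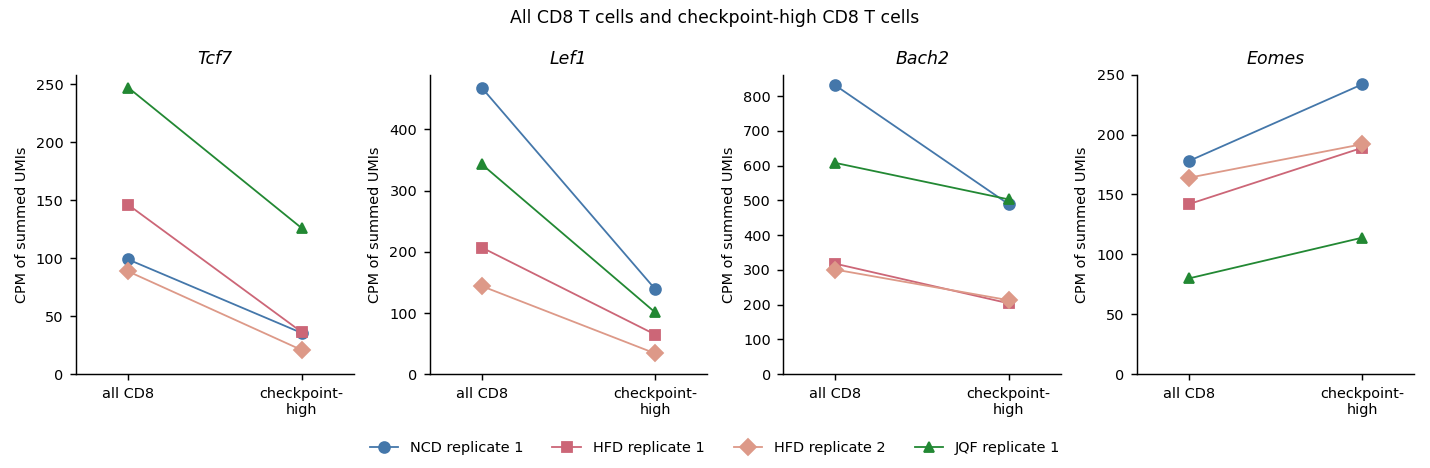
Tcf7, Lef1, Bach2 and Eomes (y axes, CPM of summed UMIs, from 0) in all CD8 T cells and in the checkpoint-high cells among them (x axis), with 1 line per library. In every library Tcf7, Lef1 and Bach2 are lower and Eomes is higher in the checkpoint-high cells, and in those cells the JQF point for Tcf7 is the highest.

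The effect of the diet was addressed by HFD against NCD, and that of the formula by JQF against HFD. Both contrasts use the same 2 HFD libraries, whose difference gives each fit its 1 residual degree of freedom, and with 1 NCD and 1 JQF library a difference between groups cannot be told apart from a difference between single libraries. In summed counts fewer cells expressing a gene and less RNA per cell cannot be told apart either, so shares of cells are given beside the levels. In all T cells 2 of 9 factors passed for HFD against NCD (5.56% of all genes tested) and 2 of 9 for JQF against HFD (0.572%). In CD4 cells 4 of 9 passed for the first (10.9%) and 1 of 9 for the second (0.376%), and in CD8 cells 2 of 8 (1.89%) and 1 of 8 (0.536%). In NK1.1+ CD8- T cells 4 of 8 passed for HFD against NCD (15.1%) and 0 of 8 by edgeR for JQF against HFD (1.03%), where 3 had an unadjusted p under 0.05 and DESeq2 also called 0. In B cells edgeR called 0 of 6 in either contrast (13.0% and 0.260%), with 1 and 2 at an unadjusted p under 0.05 and 0 called by DESeq2. NK and ILC1-like cells were left out of these fits because NCD had under 50 cells of each.

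Zbtb16 passed for HFD against NCD in all T cells and in each of the 3 T cell subsets tested, as Bach2 did, and for JQF against HFD in 3 of these 4 classes. In all T cells it was 513 CPM in NCD, 89.6 and 68.3 CPM in HFD and 348 CPM in JQF. Both HFD libraries lay below the others (HFD against NCD -2.74, SE 0.20, edgeR adjusted p = 0.00488, and JQF against HFD 2.22, SE 0.20, adjusted p = 0.0162). In NK1.1+ CD8- T cells, at the levels given above, Zbtb16 was lower in HFD than in NCD (log2 fold change -2.84, SE 0.25, adjusted p = 4.24e-06), and JQF at 0.84 above HFD did not pass (SE 0.25, adjusted p = 0.175) except with no gene filter (0.0487) or with doublets removed (0.0383). In CD4 cells it was lower in HFD than in NCD (-2.01, SE 0.27, adjusted p = 0.00460) and higher in JQF than in HFD (2.83, SE 0.26, adjusted p = 0.00687, and 0.0862 when scaled by library totals). The HFD against NCD value in CD4 cells ranged from -2.77 to -1.64 over the alternative settings. The share of CD4 cells with a Zbtb16 UMI was 12.1% in NCD, 9.45% and 7.11% in the HFD libraries and 43.0% in JQF, and after thinning 7.69%, 4.36%, 3.15% and 27.2%. Thinned B cells gave 0.372%, 0, 1.16% and 1.98%, and thinned myeloid cells 5.06%, 8.55%, 5.19% and 6.94%. The HFD shares in CD4 cells thus lay above those of B cells and below those of myeloid cells, and the exact 95% intervals of CD4 and B cells did not overlap in HFD replicate 1 (2.27% to 7.50% against at most 1.34%) but did in HFD replicate 2. JQF was the high library by this measure, while the NCD level came from few cells, since 19 of 157 NCD CD4 cells held its 327 UMIs and the 3 cells with most held 39.8% of them. The CD4 gate keeps cells whose Klrb1c was not counted, and their part in these values was not tested.

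In CD8 cells Zbtb16 was lower in HFD than in NCD (log2 fold change -2.42, SE 0.32, adjusted p = 0.0169, and 0.342 after thinning) and higher in JQF than in HFD (3.27, SE 0.29, adjusted p = 0.00665). For HFD against NCD DESeq2 gave no adjusted p at these CD8 levels, so it did not call Zbtb16. Those levels, at most 41.1 CPM, were below the 121 and 122 CPM of Zbtb16 in the free RNA of NCD and JQF, but 3 cells held 88% of the 50 UMIs in NCD CD8 cells. B cells had 3.84 CPM of Zbtb16 in NCD, 0 and 7.36 CPM in HFD and 16.4 CPM in JQF. The free RNA of the HFD libraries was lower in Zbtb16 as well, and its part in the CD8 result was not tested. NK1.1+ CD8- cells made up 18.5% of T cells in NCD (exact 95% Clopper-Pearson interval 15.4% to 21.9%), 10.2% and 7.65% in the HFD libraries and 33.9% in JQF (32.3% to 35.6%). This share, like Zbtb16 in all T cells, was lowest in HFD, and its part in the levels of all T cells and of the CD4 gate was not tested. Such intervals cover counting error only.

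Il4, a type 2 cytokine whose message NKT cells keep ready, had the same order of groups as Zbtb16 in T cells. It was 305 CPM in all T cells in NCD, 47.6 and 36.9 CPM in HFD and 183 CPM in JQF (HFD against NCD -2.89, SE 0.19, adjusted p = 0.00488, and JQF against HFD 2.20, adjusted p = 0.0162). In NK1.1+ CD8- T cells Il4 was lower in HFD than in NCD, and for JQF against HFD it did not pass. In CD4 cells Il4 stood at -3.55 (SE 0.28, adjusted p = 0.000840) and 3.03 (SE 0.28, adjusted p = 0.00687), the second of which was lost when scaled by library totals, where edgeR called 0 of 10909 genes in CD4 cells (862 at an unadjusted p under 0.05, and 21 called by DESeq2). The part of cells in the CD4 gate whose Klrb1c was not counted was not tested here either. T cells with an Il4 UMI, a split chosen after these values were seen, numbered 119 in NCD, 134 and 130 in the HFD libraries and 1149 in JQF, which is 20.7%, 7.64%, 7.42% and 35.7% of T cells. Of them 95% in NCD, 75.4% and 73.1% in the HFD libraries and 88.8% in JQF also had a Zbtb16 UMI, against 18.5%, 11.2%, 7.27% and 37.2% of T cells without Il4. The median depth was 7014 to 10694 UMIs with Il4 and 6719.5 to 10751 UMIs without. NK1.1+ CD8- cells were 68.1% of the cells with Il4 in NCD, 46.3% and 43.8% in the HFD libraries and 54.9% in JQF. CD4 cells were 9.24% to 14.8% of them. CD8 cells were 0 to 1.74% of the cells with Il4 and 28.8% to 65.2% of those without. The part of this composition in the shares of Zbtb16, Gata3 and Etv5 was not tested. Gata3 separated the 2 sets less, being counted in 53.8% to 64.2% of cells with Il4 and 42.9% to 49.9% of cells without.

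**Figure D4:**
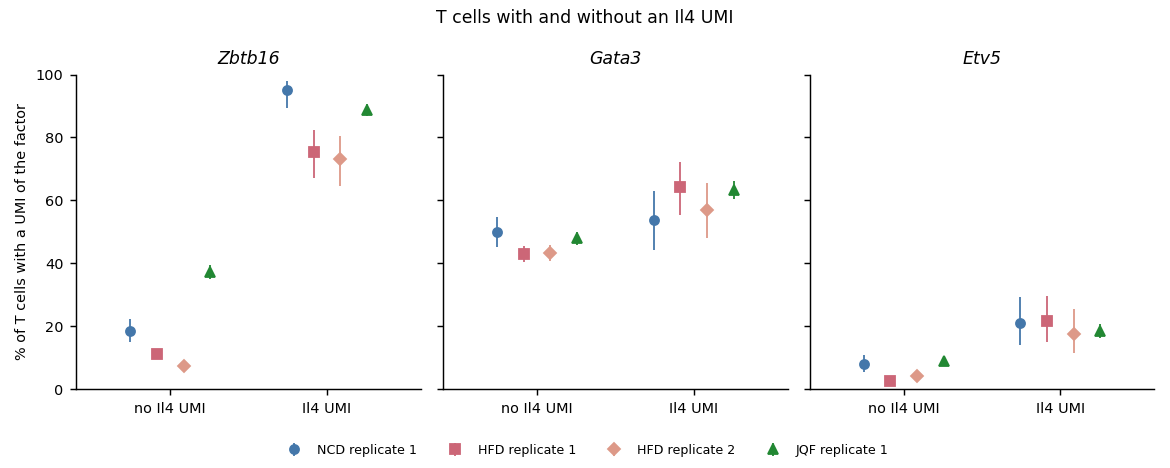
Share of T cells (y axis, percent, bars are exact 95% binomial intervals) that had a UMI of Zbtb16, Gata3 or Etv5, among T cells without and with an Il4 UMI (x axis), with 1 point per library. Zbtb16 is found in 73.1% to 95% of cells with Il4 and in 7.27% to 37.2% of cells without.

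Etv5 was sparse in lymphocytes. In all T cells it was 11.3 CPM in NCD, 6.69 and 7.24 CPM in HFD and 16.7 CPM in JQF, against 19.9 to 58.6 CPM in myeloid cells and 12.7 to 25.0 CPM in free RNA. JQF against HFD gave 1.34 on the log2 scale (SE 0.26), which did not pass (adjusted p = 0.116) but passed in 4 alternative settings, with adjusted p from 0.000792 to 0.0446, and in CD4 cells 1.48 (SE 0.51, adjusted p = 0.399). NK1.1+ CD8- T cells had the highest lymphocyte level, 28.9 CPM in NCD, 16.2 and 25.4 CPM in HFD and 27.0 CPM in JQF, without overlap with the 3.95 to 14.4 CPM of ILC1-like cells, the next in order. T cells with an Il4 UMI had an Etv5 UMI in 21.0% of cells in NCD, 21.6% and 17.7% in the HFD libraries and 18.5% in JQF, against 7.91%, 2.72%, 4.19% and 8.94% without Il4. The cells with Il4 held few CD4 cells and many NK1.1+ CD8- cells, as given above, and the part of this in the Etv5 shares was not tested. The shares with Il4 were at or below those of the deeper myeloid cells, 40.5%, 22.2%, 25.9% and 19.3%, a cell class that carries Etv5 itself. Of 7 tested genes linked to Etv5, Spry1, Spry2 and Dusp4, which encode inhibitors of growth factor signalling, were lower in T cells of HFD than of NCD and none was higher, where 5.56% of all genes passed (median log2 fold change -1.39, all genes 0.08).

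Among the T cell classes Eomes passed for HFD against NCD in CD4 cells. It was 163 CPM in NCD, 6.08 and 8.26 CPM in HFD and 2.40 CPM in JQF, so that NCD stood far above the other 3 libraries (HFD against NCD -4.52, SE 0.26, edgeR adjusted p = 0.000393). DESeq2 gave no adjusted p for Eomes in this contrast, so it did not call it. An Eomes UMI was found in 62 of 157 NCD CD4 cells, 39.5% (exact 95% interval 31.8% to 47.6%), and in 2.18% and 1.33% of HFD and 0.733% of JQF CD4 cells. After thinning the shares were 21.8%, 1.45%, 0.450% and 0.367%. In NK1.1+ CD8- T cells Eomes had 0 UMIs in NCD, 18 and 4 UMIs in HFD (10.8 and 4.41 CPM) and 35 UMIs in JQF (3.36 CPM), where HFD against NCD did not pass (adjusted p = 0.116) except with no gene filter (0.0238). In CD8 cells Eomes was 178 CPM in NCD, 142 and 164 CPM in HFD and 80.0 CPM in JQF, with JQF the lowest. Neither HFD against NCD (-0.19, SE 0.26, adjusted p = 0.723) nor JQF against HFD (-0.82, SE 0.27, adjusted p = 0.292) passed in CD8 cells. The difference between the diet's effects in CD8 and CD4 cells passed, at 4.27 on the log2 scale (SE 0.38, adjusted p = 0.00321), for 1 of 9 factors in a test where 0.193% of 12925 genes passed. For JQF against HFD edgeR called 0 of 9 factors between CD8 and CD4 cells (0.248% of genes), with 4 at an unadjusted p under 0.05 and 0 called by DESeq2, but with no gene filter it called Lef1 (1.26, adjusted p = 0.00276), Tcf7 (1.37, adjusted p = 0.00269) and Foxp3 (3.78, adjusted p = 0.00713). The Foxp3 value rests on few UMIs, since Foxp3 was at most 1.13 CPM in CD8 cells.

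In all T cells Eomes was lower in JQF than in HFD (by -2.08 on the log2 scale, SE 0.29, adjusted p = 0.0435), at the levels given above, and JQF was the low library. CD8 cells, in which Eomes was high in every library, were 25.3% of T cells in NCD, 49.4% and 60.4% in the HFD libraries and 19.2% in JQF. Checkpoint-high cells, where Eomes was higher than in other CD8 cells, were 58.6% of CD8 cells in NCD, 58.0% and 71.4% in the HFD libraries and 26.9% in JQF. The part of these shares in the T cell result was not tested. The difference between the JQF effects in NK and T cells passed for Eomes, at 2.40 on the log2 scale (SE 0.31, adjusted p = 2.24e-11), and for Zbtb16, at -2.18 (SE 0.40, adjusted p = 3.28e-05, and 0.0628 by DESeq2), which were 2 of 9 factors where 1.11% of 13119 genes passed. With 1 residual degree of freedom and 1 JQF library, the size of these p-values rests mainly on spread borrowed from other genes. For Eomes the adjusted p ran up to 0.0170 in the alternative settings. Gzmk, a granzyme gene, was 113 CPM in T cells in NCD, 163 and 247 CPM in HFD and 23.7 CPM in JQF (JQF against HFD -3.05, SE 0.34, adjusted p = 0.0339). It was the gene that passed in T cells in this contrast among the 14 linked to Tbx21 and Eomes (median -0.91, all genes -0.01), where 0.572% of all genes passed.

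Tbx21 passed between groups in 1 of the T cell classes. In T cells it was 268 CPM in NCD, 217 and 194 CPM in HFD and 287 CPM in JQF, with HFD below both, and neither contrast passed (adjusted p = 0.218 and 0.312). In CD4 cells it was 169 CPM in NCD, 169 and 136 CPM in HFD and 260 CPM in JQF, the highest library. JQF against HFD in CD4 cells at 0.81 (SE 0.21, adjusted p = 0.202) passed with no gene filter (0.00979) and with doublets removed (0.0255). In NK1.1+ CD8- T cells it was 358 CPM in NCD, 230 and 257 CPM in HFD and 298 CPM in JQF, and HFD was lower than NCD (log2 fold change -0.79, SE 0.23, adjusted p = 0.0329). That call was kept in 5 of 8 alternative settings, with adjusted p up to 0.383. Gata3 was 117 CPM in T cells in NCD, 112 and 115 CPM in HFD and 138 CPM in JQF, and it passed in neither contrast in any of the 4 T cell classes. In NK1.1+ CD8- T cells Gata3 ranged from 151 to 172 CPM over the 4 libraries.

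Bach2 was lower in HFD than in NCD in every T cell class tested. In all T cells it was 844 CPM in NCD, 347 and 350 CPM in HFD and 476 CPM in JQF (log2 fold change -1.31, SE 0.20, adjusted p = 0.0234). In CD4 cells it was 818, 380, 392 and 446 CPM in the same order (-1.07, SE 0.20, adjusted p = 0.0148), in CD8 cells 831, 318, 301 and 608 CPM (-1.41, SE 0.24, adjusted p = 0.0392) and in NK1.1+ CD8- T cells 1025, 403, 464 and 432 CPM (-1.47, SE 0.24, adjusted p = 0.000769). NCD was the highest library each time. JQF against HFD in CD8 cells stood at 1.09 and did not pass (adjusted p = 0.140), but did by DESeq2 (0.0184), with no gene filter (0.00677) and after thinning (0.0143). In B cells, at the levels given above, neither HFD against NCD (-0.62, SE 0.16, adjusted p = 0.0540) nor JQF against HFD (-0.69, SE 0.17, adjusted p = 0.191) passed. Scaled by library totals both did (adjusted p = 0.0248 and 0.0287), and the first also did at 10% mitochondrial UMIs (0.0337). A Bach2 UMI was found in 84.5% of T cells in NCD, 64.7% and 63.1% in the HFD libraries and 78.8% in JQF, and after thinning in 62.3%, 38.0%, 39.2% and 49.6%, so the order of the groups was the same at equal depth. Thinned myeloid cells gave 18.7% to 21.6%. Bach2 in free RNA was 203 CPM in NCD, 108 and 119 CPM in HFD and 154 CPM in JQF, in the order of the T cells, and its part was not tested.

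Tcf7 ran against Bach2 in the diet contrast in CD4 and NK1.1+ CD8- T cells. In CD4 cells it was 99.6 CPM in NCD, 216 and 257 CPM in HFD and 205 CPM in JQF, with NCD the low library (HFD against NCD 1.26, SE 0.24, adjusted p = 0.0163). NK1.1+ CD8- T cells gave 1.05 (SE 0.26, adjusted p = 0.0134), a call kept in 6 of 8 alternative settings, with adjusted p up to 0.291. A Tcf7 UMI was seen in 32.5% of CD4 cells in NCD, 64.4% and 61.8% in the HFD libraries and 64.8% in JQF, and after thinning in 16.7%, 34.2%, 39.2% and 29.7%. In CD8 cells Tcf7 was 98.9 CPM in NCD, 146 and 88.6 CPM in HFD and 247 CPM in JQF, and JQF against HFD at 1.21 did not pass (adjusted p = 0.172) except with no gene filter (0.000480) or after thinning (0.00662). HFD against NCD in CD8 cells was 0.25 (SE 0.32) and did not pass, with the HFD libraries on either side of NCD. In all T cells Tcf7 was 90 CPM in NCD, 166 and 130 CPM in HFD and 148 CPM in JQF, and HFD against NCD at 0.68 (SE 0.20, adjusted p = 0.101) passed in 3 of 8 alternative settings. Lef1 in all T cells was 432 CPM in NCD, 262 and 217 CPM in HFD and 267 CPM in JQF, with NCD the highest. Its HFD against NCD value of -0.89 (SE 0.19, adjusted p = 0.0503) lay just outside the threshold and passed in 7 of 8 alternative settings, DESeq2 among them (0.00772). Lef1 in CD8 cells was 468 CPM in NCD, 207 and 144 CPM in HFD and 343 CPM in JQF, with both HFD libraries below the others. The difference between the diet's effects in NK and T cells passed for Lef1, at 4.21 on the log2 scale (SE 0.67, adjusted p = 3.16e-07), 1 of 9 factors where 0.816% of genes passed, where the median over all genes was 0.72, but it rests on 9 NCD NK cells and did not pass by DESeq2 (adjusted p = 0.128). In CD8 cells HFD against NCD gave -1.40 (SE 0.27, adjusted p = 0.0529), which passed in 6 alternative settings, and JQF against HFD gave 1.09 (adjusted p = 0.172), which passed with no gene filter (0.00415) and after thinning (0.0153).

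Foxp3 in CD4 cells, at the levels given above, was lowest in JQF, but the HFD libraries differed from each other by more than NCD differed from either. Neither HFD against NCD (0.02, adjusted p = 0.977) nor JQF against HFD (-1.21, SE 0.35, adjusted p = 0.276) passed. JQF against HFD passed with no gene filter (-1.15, adjusted p = 0.00246), with doublets removed (-1.22, adjusted p = 0.0202) and after thinning (-1.85, adjusted p = 0.0350). HFD against NCD passed after thinning alone (2.24, adjusted p = 0.0407), where NCD had 3 Foxp3 UMIs left. The Il2ra+ Ctla4+ cells were 16.6% of CD4 cells in NCD, 13.1% and 15.6% in the HFD libraries and 13.7% in JQF.

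**Figure D5:**
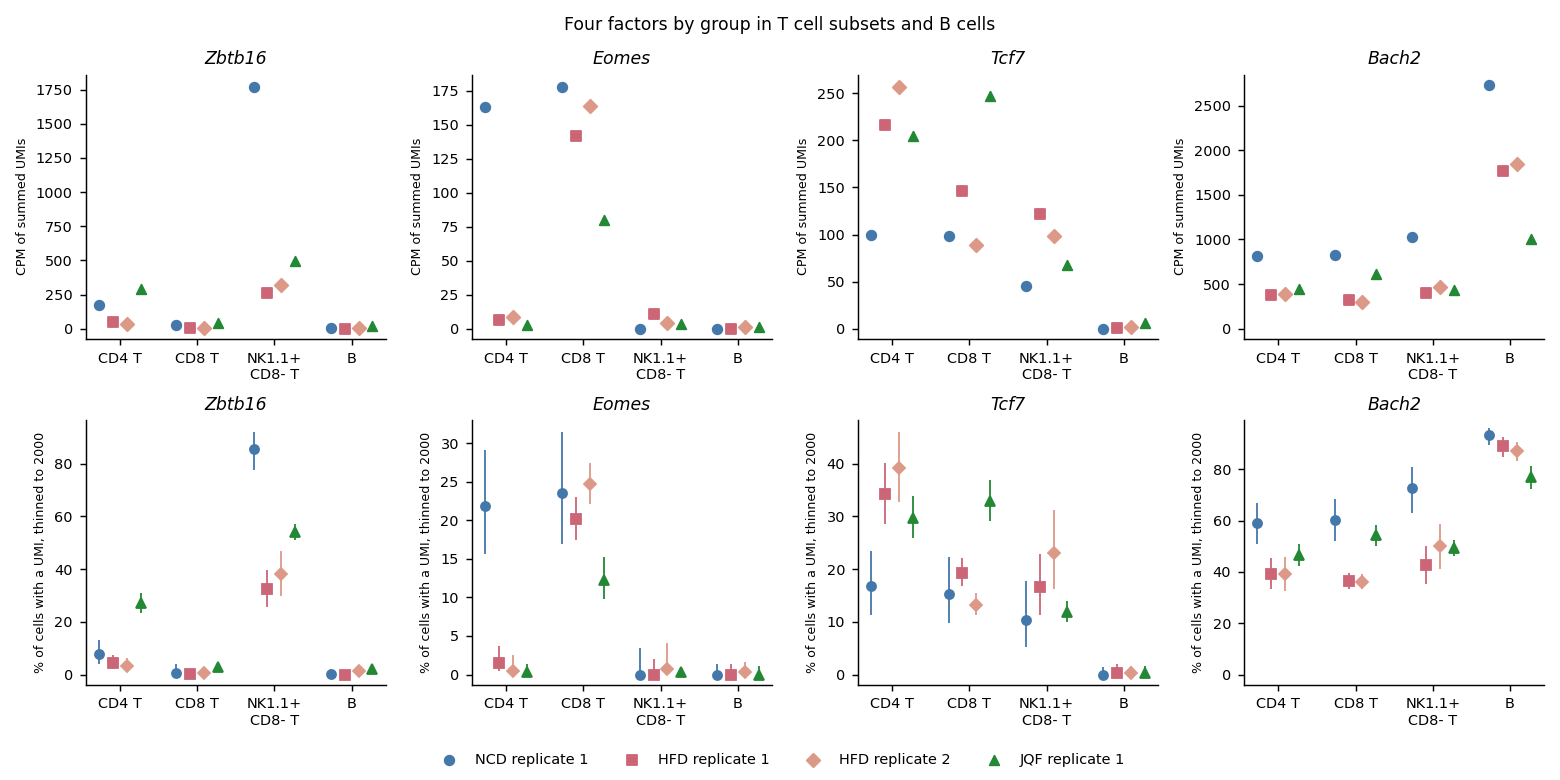
Zbtb16, Eomes, Tcf7 and Bach2 by library in CD4, CD8 and NK1.1+ CD8- T cells and B cells (x axes), as CPM of summed UMIs (top row) and as the share of cells with a UMI after thinning to 2000 UMIs per cell, with exact 95% binomial intervals (bottom row). NCD is highest for Bach2 in every class shown, JQF is highest for Zbtb16 in CD4 cells, and Eomes in CD4 cells is high in NCD and low in the other 3 libraries.

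Other lymphocyte factors were listed for comparison. Of 24 such genes tested in T cells, 1 was higher and 7 lower in HFD than in NCD, where 5.56% of all genes passed (median log2 fold change -0.32, all genes 0.08), with Satb1 (-1.79, SE 0.22), Rora (-1.56, SE 0.21), Stat4 (-1.56, SE 0.22) and Zeb2 (-1.20, SE 0.18) having the smallest p. In CD4 cells 3 were higher and 12 lower, where 10.9% of all genes passed (median -0.75, all genes 0.05). For JQF against HFD the genes of this list that passed in the T cell classes were Maf, lower in CD8 cells, and Irf4, higher in NK1.1+ CD8- T cells.

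NK and ILC1-like cells of JQF and HFD were compared with the NCD library left out, a comparison chosen after the data were seen. In ILC1-like cells Tcf7 was 188 and 150 CPM in HFD and 55.3 CPM in JQF (log2 fold change -1.53, SE 0.28, adjusted p = 0.000101), and Tbx21 was 360 and 285 CPM in HFD and 521 CPM in JQF (0.78, SE 0.21, adjusted p = 0.0155). These were 2 of 8 factors, where 4.90% of 8237 genes passed. A Tcf7 UMI was found in 62.2% and 57.1% of HFD and 28.7% of JQF ILC1-like cells, and after thinning in 27.6%, 22.9% and 6.52%. In NK cells Bach2 passed of 7 factors, at 667 and 578 CPM in HFD and 897 CPM in JQF (0.63, SE 0.19, adjusted p = 0.0265), where 5.37% of 8442 genes passed. DESeq2 called 0 of these 3, and of 8 alternative settings 7 kept the Tcf7 call, 4 that of Tbx21 and 3 that of Bach2. Of 12 genes linked to Tbx21 and Eomes, 7 were higher and none lower in JQF ILC1-like cells (median log2 fold change 0.77, all genes -0.03), led by Gzma (2.92, SE 0.33), Gzmb (2.44, SE 0.29), Ccl4 (1.52, SE 0.20) and the interferon gene Ifng (1.00, SE 0.22). Of the other lymphocyte factors listed above, 20 were tested in NK cells, where 5 were higher in JQF and 1 lower (median 0.25, all genes -0.04), with Klf2 at 1.28 (SE 0.19), Bcl6 at 0.97 (SE 0.23), Nfil3 at 1.29 (SE 0.32) and Id3 at -1.79 (SE 0.41). In ILC1-like cells 21 were tested, of which Nfil3 was higher (1.47, SE 0.33) and Rora (-0.95, SE 0.23) and Ikzf2 (-0.78, SE 0.23) were lower. With stricter gates edgeR called 0 of 8281 genes in NK cells (823 at an unadjusted p under 0.05), so none of these NK calls was kept there, and DESeq2 called 49 genes in NK cells, each of them higher in JQF, so Id3 was not called by it.

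The order of levels over CD4, CD8, NK1.1+ CD8- T, gamma-delta, NK, ILC1-like and B cells was taken from the mean of the 4 libraries. For Bach2 it ran from B cells at 1835 ± 706 CPM (SD, n = 4) to NK cells at 766 ± 170 CPM, which did not overlap, and each class from NK on overlapped the next. Foxp3 ran from CD4 cells at 40.0 ± 17.3 CPM to NK1.1+ CD8- T cells at 1.42 ± 2.02 CPM, without overlap. For Gata3, Tbx21 and Tcf7 the neighbours that did not overlap were B cells, at 1.19 ± 0.872, 9.31 ± 4.58 and 2.15 ± 2.61 CPM, and the class before them. Zbtb16, Eomes and Lef1 had no pair of neighbours without overlap. Eomes was highest in NK cells at 185 ± 57.9 CPM, Lef1 and Zbtb16 in NK1.1+ CD8- T cells at 382 ± 120 and 713 ± 713 CPM.

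Genes whose level was most like that of a factor were ranked by Pearson's r of log2(CPM + 1) over 27 class-by-library values of 8 classes, among 6279 genes. These values share libraries and depth, so r is a description. B cells are among the classes. For Gata3, Tbx21 and Tcf7 they lay below every other class in the order above, so genes low in B cells can reach a high r. Gata3 was closest to Skap1 (r = 0.987), an adaptor of T cell receptor signalling, Tbx21 to Tnfrsf1a (0.971), Tcf7 to Il18r1 (0.971) and Bach2 to Klhl24 (0.928), with the factor Foxp1 among its 5 closest (0.899). Lef1 was closest to Sidt1 (0.925), Zbtb16 to Tex2 (0.904), Eomes to Ndfip2 (0.874), Foxp3 to Cd4 (0.829), which is itself a gate gene, and Etv5 to Rrad (0.687).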

How the data were processed

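Droplet single-cell RNA-seq of liver cells gave 1 UMI count matrix per library for 4 libraries. The authors deposited UMI counts per gene and cell barcode, raw and filtered to called cells, aligned to mm10. The submitters' processing notes name Cell Ranger 6.0.1 and Seurat 4.0.3, the headers of the filtered matrices 7.0.0 and those of the raw matrices Cell Ranger 4, and whether introns were counted, which changes the levels of long genes, is not given in the sources used here. Depth was 67615639 to 108062769 UMIs per library, and intervals and floors cover counting error only.

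Barcodes with fewer than 500 genes or over 20% mitochondrial UMIs were left out, and the rest were gated on raw UMIs of marker genes. A T cell had at least 2 UMIs of the Cd3 genes with Cd3e and no more than 1 UMI of B cell markers, and NK and ILC1-like cells had at least 2 UMIs of Ncr1 and Klrb1c, no Cd3e, and were split by whether NK or ILC1 markers had the higher sum. Doublets were kept in the main analysis and removed by Scrublet score as an alternative, 0.8% of barcodes per 1000 called. Shares of cells with a UMI carry exact Clopper-Pearson 95% intervals and were repeated after each cell was thinned to 2000 UMIs, leaving out shallower cells. Levels are UMIs summed per library and class, as CPM of that class.

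Sums were tested by edgeR 4.0.16 in R 4.3.3 (quasi-likelihood F test, TMM, filterByExpr, Benjamini-Hochberg over all genes tested, threshold 0.05), group by group in classes with at least 50 cells in every library, and class by class with the library as a block. DESeq2 1.42.0, library totals, no gene filter, stricter gates, other cell filters and leaving out libraries were alternatives. Python 3.11.15, scanpy 1.11.5 and scipy 1.17.1 were used for the counts. On simulated data with 200 changed genes, T cells of JQF against HFD gave back 51% of 2-fold changes (14637 genes) and 100% of 4-fold changes (14617 genes), and NK against T cells 100% of both (11175 and 11217 genes). The simulated counts had the same fixed dispersion for every gene. Changes were set only in genes above a minimum expected count in the shallowest column. These shares therefore do not cover sparse factors such as Foxp3 and Etv5, or genes that vary more between libraries.

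The members and lists were chosen with earlier results of these data known. All 9 factors are named. From a list, genes named are those past the threshold, at most the 4 with the smallest p, and likeness was ranked among genes with a mean of at least 20 CPM, with 1 added before log2. Window sequences come from RefSeq (GRCm38.p6) and cover 250 bases before to 50 after an annotated start. They can hold transcribed or coding bases, and whether they act as promoters was not tested. Comparisons that rest on 1 of the planned T cell gates are not reported here.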

Additional observations from a re-analysis of the deposited data

Results flagged for a closer look

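For 4 results the effect of a group differed between 2 cell classes by edgeR's quasi-likelihood test of the class by group term, with Benjamini-Hochberg adjustment over all genes tested. Each contrast rests on 1 NCD or 1 JQF library. Each fit has 1 residual degree of freedom, so the adjusted p by edgeR rests mainly on spread borrowed from other genes.

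The effect of HFD against NCD on Lef1 was higher in NK than in T cells by 4.21 on the log2 scale (adjusted p = 3.16e-07), where the NCD NK gate held 9 cells and DESeq2 gave an adjusted p of 0.128. That of JQF against HFD on Zbtb16 differed by -2.18 (adjusted p = 3.28e-05, and 0.0628 by DESeq2), since Zbtb16 was higher in JQF in T cells but stood at 37.7 CPM in JQF NK cells against 49.5 and 28.9 CPM in HFD. For Eomes the same contrast differed by 2.40 (adjusted p = 2.24e-11, and up to 0.0170 in the alternatives), with JQF below HFD in T cells and above it in NK cells. The value in NK cells alone, with NCD left out, was 0.34 on the log2 scale (SE 0.23) and did not pass. The effect of HFD against NCD on Eomes differed between CD8 and CD4 cells by 4.27 (adjusted p = 0.00321), since CD4 cells fell to 6.08 and 8.26 CPM from 163 CPM. The parts of cell composition and of single libraries in these differences were not tested.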

How the results depend on the processing

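No paired analysis of groups was possible because the labels give no pairing of mice between groups. No fold change of a called factor changed direction among the alternatives run, while medians over all genes did in some, such as from 0.723 to -0.713 by DESeq2 for the difference between diet effects in NK and T cells. Calls, counted once for each factor and class, were 12 for HFD against NCD and stayed within 1.5 times of it. All T cells include the cells of the T cell subsets, so these calls are not independent. The share of all genes called in T cells was 5.56% in that contrast and ran from 5.55% to 13.4% over the alternatives. For JQF against HFD the count was 4, and rose to 11 with no gene filter, 9 with doublets removed and 9 after thinning to 2000 UMIs. The share of all genes called rose in these settings too, in T cells from 0.572% to 4.1%, 2.08% and 3.8%. In CD4 cells that share rose from 0.376% to 1.77%, 2.66% and 1.88%. For differences of effects the count of calls was 4, with 8 with no gene filter and 2 by DESeq2. With no gene filter the share of all genes called for JQF against HFD rose from 0.248% to 1.3% between CD8 and CD4 cells. Between NK and T cells it fell from 1.11% to 0.484%. For JQF against HFD in NK and ILC1-like cells, added after the data were seen, the count of calls was 3, with 1 by library totals, 0 by DESeq2, 1 with stricter gates and 1 after thinning. In that order the share of all genes called in ILC1-like cells went from 4.9% to 2.14%, 0.564%, 2.16% and 2.2%. In NK cells it went from 5.37% to 4.55%, 1.73%, 0 and 2.97%. The causes were not tested. Without an HFD library the contrasts of groups have no residual degree of freedom and give values only, such as -2.36 and -1.73 for Zbtb16 and -4.21 and -4.76 for Eomes in CD4 cells, HFD against NCD. With scaling by library totals, the median over all genes went on the log2 scale from 0.079 to 0.319 in NK1.1+ CD8- T cells, HFD against NCD, from -0.021 to -0.136 in CD8 cells and from -0.013 to -0.172 in B cells, both JQF against HFD, and from -0.093 to 0.017 for NK against T cells, from -0.017 to -0.133 for B against T cells, from 0.016 to 0.131 for checkpoint-high against other CD8 cells, and from -0.039 to -0.147 in NK and -0.033 to -0.141 in ILC1-like cells, JQF against HFD. Of 216 shares of cells, 214 stayed within their interval with stricter gates and 215 with doublets removed, but 96 when thinned to 1000 rather than 2000 UMIs.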

Other observations

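The NCD CD4 cells with an Eomes UMI were described further, a set chosen after its values were seen, and no test was run. They numbered 62 of 157 cells, with a median of 9645 UMIs against 10503 UMIs in the other NCD CD4 cells, and Scrublet marked 0 of the 62. Gzmk was counted in 88.7% of them against 20.0% of the others, Il10 in 38.7% against 10.5%, Ccl5 in 98.4% against 65.3% and the inhibitory receptor gene Pdcd1 in 56.5% against 32.6%. Tcf7 was counted in 9.68% against 47.4%, Il7r in 14.5% against 62.1% and Foxp3 in 0 cells against 17.9%. Lef1 was alike in both sets, at 58.1% against 57.9%. Tbx21 (38.7% against 52.6%), Gata3 (37.1% against 56.8%), Bach2 (67.7% against 86.3%) and Zbtb16 (6.45% against 15.8%) were seen less often in the cells with Eomes. The HFD libraries had 6 and 3 such cells and JQF had 4.

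Zbtb16 in endothelial cells, outside the lymphocyte comparisons, was seen in 12.2% of cells in NCD, 48.2% and 67.8% in the HFD libraries and 82.7% in JQF, and after thinning in 2.80%, 30.0%, 43.2% and 49.3%. The NCD endothelial cells were the most deeply counted, with a median of 15228 UMIs against 6078 to 7816 UMIs, and NCD held 3601 of the 5381 cells. The thinned share in NCD lay below that of NCD myeloid cells, 5.06%.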
